A study of Mus musculus with 24 samples.

Results

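The 78 mitochondrial ribosomal protein genes measured here are the nuclear genes whose current symbol, or whose name on the array, starts with Mrpl or Mrps followed by a number. Genes were taken when a probe had a mean signal over local background of at least 2 in both dye channels, and each gene was represented by its brightest probe. All 78 genes with such a name on the array passed, with 113 of their 130 probes, out of 10772 named genes with a kept probe. By name, 49 of them belong to the large (Mrpl) and 29 to the small (Mrps) subunit.

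The mitochondrial ribosome translates the few messenger RNAs of the mitochondrial genome, all of which encode subunits of the respiratory chain and of ATP synthase. Its proteins are encoded in the nucleus, made in the cytosol and imported, so their supply has to be matched to ribosomal RNA made inside the organelle. In skeletal muscle, where oxidative capacity varies with training, fibre type and diet, the coactivator PGC-1α (Ppargc1a) is known to raise many genes of mitochondrial biogenesis through NRF1, GABPA and the ERR receptors. Both dietary n-3 LC-PUFA and the PPARγ agonist rosiglitazone have been studied for effects on muscle mitochondria, and the question here was whether the diets changed the genes of the organelle's ribosome and whether these followed Ppargc1a.

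Expression was measured in the gastrocnemius of 24 male C57BL/6N mice, 3 months old when the diets started. All of them were fed for 8 weeks a corn-oil based high-fat diet with about 35% lipids by weight, either as such (cHF, n = 8), with 15% of the lipids replaced by an n-3 LC-PUFA concentrate with 46% DHA and 14% EPA (cHF+F, n = 8), or with 10 mg rosiglitazone per kg diet (cHF+ROSI, n = 8). Before dissection every mouse was fasted for 10 hours, re-fed Chow overnight and killed in the morning, so that none of the groups was on the high-fat diet when the muscle was taken, and no group without high-fat feeding was analysed here. Values are log2 ratios of the Cy5 signal of 1 animal over the Cy3 signal of a reference pool common to all arrays, which itself held RNA of mice given a higher rosiglitazone dose.

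The arrays came on 8 slides, each with 1 array of every diet in the same order, so the place on the slide and the diet cannot be told apart. Between 30.4% and 91.1% of an array's spots stood well above background in Cy5. The 6 skeletal muscle markers (Ckm, Acta1, Myh4, Tnnt3, Mylpf and Pvalb) had signals of 1784 to 6069 times background. Markers of slow fibres, adipocytes, macrophages (5 genes from 7 symbols searched), blood, endothelium and liver (3 from 5) also passed the threshold on signal. Among the macrophage symbols Emr1 and Adgre1 name the same gene. The mean log2 ratio of 6 slow fibre markers was 0.0897 ± 0.35 in cHF, -0.36 ± 0.50 in cHF+F and -0.13 ± 0.62 in cHF+ROSI mice (SD, n = 8), and its part in the results below was not tested. In bulk muscle, fewer cells of a type and less RNA per cell cannot be told apart.

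The signal of the members over background in Cy5 ran from 7.08 to 626.8 with a median of 84.1, against a median of 15.7 over all named genes. No spot of the 78 probes carried a quality flag or was saturated, and 76 of them were well above background on all 24 arrays, the other two on at least 23. The probes with the highest signals belonged to Mrpl14, Mrpl33, Mrpl51 and Mrps34, and those with the lowest, which also lay nearest to the threshold of 2, to Mrps18b (7.08 in Cy5 and 3.36 in Cy3), Mrps27 (9.16 and 4.60), Mrps2 (11.2 and 4.85) and Mrps35 (13.1 and 5.59). Over the 24 arrays the SD of a member's log2 ratio was 0.073 to 0.20, with a median of 0.13 (0.15 over all named genes).

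On every array the members lay close to the reference. Their mean log2 ratio was 0.033 ± 0.035 in cHF, 0.045 ± 0.049 in cHF+F and 0.043 ± 0.074 in cHF+ROSI mice (SD, n = 8). The lowest, median and highest arrays were at -0.019, 0.034 and 0.089 in cHF, at -0.017, 0.050 and 0.10 in cHF+F, and at -0.052, 0.058 and 0.15 in cHF+ROSI mice. The ranges of the cHF and cHF+F mice overlapped, and both lay inside the wider range of the cHF+ROSI mice. The cHF+ROSI mice held both the highest array (replicate 7) and the lowest (replicate 8) of the series. Taken slide by slide, the cHF+F mouse was above the cHF mouse on 5 of 8 slides (differences from -0.026 to 0.10), and the cHF+ROSI mouse on 5 of 8 (-0.081 to 0.14).

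**Figure D1:**
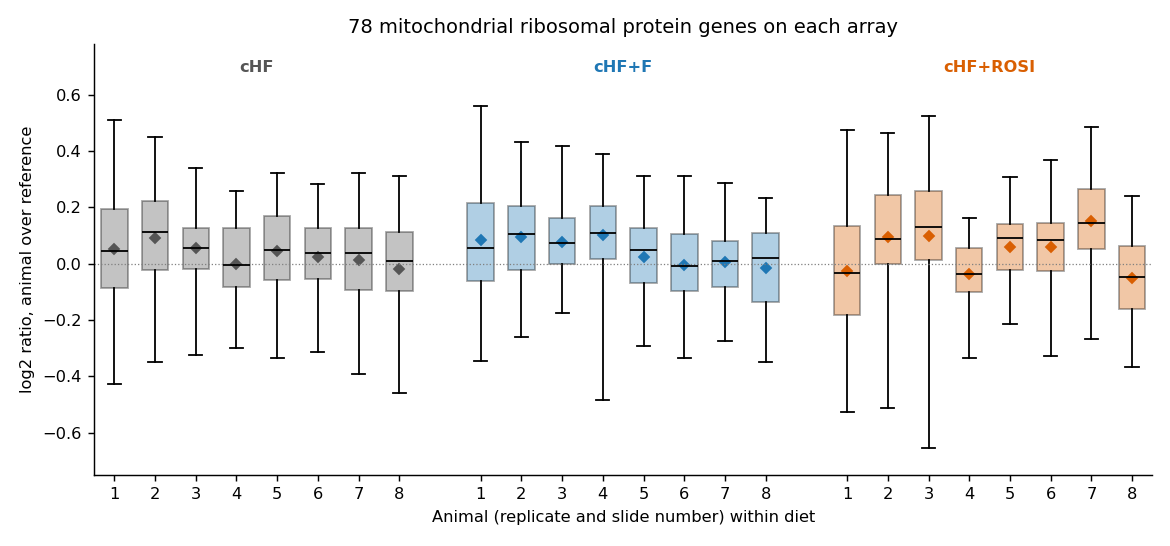
Log2 ratio over the reference of the 78 mitochondrial ribosomal protein genes on each of the 24 arrays, by diet and replicate number. Boxes give quartiles, lines in them medians, whiskers the lowest and highest gene, and diamonds the mean, which lay between -0.052 (cHF+ROSI, replicate 8) and 0.15 (cHF+ROSI, replicate 7).

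The n-3 LC-PUFA diet gave no called change in any mitochondrial ribosomal protein gene against cHF. Over the 78 genes 42 had a higher and 36 a lower mean in cHF+F, with a median log2 change of 0.011 (0.00072 over all 15934 probes tested), which with median centring of the arrays in place of loess was -0.055. None was called by limma at an adjusted p under 0.05, and neither was any probe of the arrays (0 of 15934, 0%). At an unadjusted p under 0.05 there were 2 higher and 1 lower member, while 2.86% of all probes were higher and 3.99% lower.

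In the main fit the changes were bounded as well as small. No member reached a 1.2-fold difference of the means there in either direction, a size that 1.66% of all probes reached. Under alternative settings Mrpl37 reached 0.33 and Mrpl54 0.28, where 1.2-fold is 0.26 on the log2 scale. For 70 of the 78 the 95% interval of the change in the main fit lay wholly within 1.2-fold, as it did for 73.8% of all probes. The 8 members whose interval extended further were Mrpl54, Mrpl10, Mrps18b, Mrpl19, Mrpl42 and Mrpl45 upwards, and Mrps30 and Mrpl1 downwards. Large and small subunit genes had medians of 0.018 (27 of 49 higher) and 0.00062 (15 of 29 higher).

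Mrpl54, a protein of the large subunit, had the smallest p (probe on chromosome 10, 80667968 to 80668027, build mm8). Its log2 ratio had a lowest, median and highest value of -0.16, -0.011 and 0.20 in cHF, and of 0.055, 0.18 and 0.30 in cHF+F mice. All 8 cHF+F arrays lay above the cHF mean, but the ranges overlapped, the cHF mouse with replicate number 1 lying at 0.20, within the cHF+F range. The change was 0.20 (95% interval 0.085 to 0.31, 1.15-fold), with a limma p of 0.00117 and an adjusted p of 0.387. Across the other settings it ranged from 0.13 to 0.28 with adjusted p-values from 0.0785 to 0.9999, and none of them called it.

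Mrps30, named as a small subunit protein but located on the large subunit, was the member with the smallest p among those lower (chromosome 13, 119499677 to 119499736). Its values ran from 0.027 to 0.35 with a median of 0.15 in cHF, and from -0.16 to 0.13 with a median of 0.0094 in cHF+F mice. The groups overlapped between 0.027 and 0.13, with all 8 cHF+F arrays under the cHF mean. The change was -0.15 (interval -0.29 to -0.020, limma adjusted p 0.652).

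The other members with small p-values came from both subunits and none passed the correction. Mrps18b, one of the 3 paralogs that share the S18 fold, had a change of 0.17 (limma adjusted p 0.707) with the dimmest probe of all members. Mrpl22, a core protein of the polypeptide exit tunnel, had one of 0.13, and Mrpl10, which anchors the stalk to which Mrpl12 binds, one of 0.17. Mrpl19 (0.14), Mrpl37 (0.099), Mrps35 (0.11) and Mrpl48 (0.091) were on the higher side and Mrpl13 (-0.068) on the lower, and Mrps35 was at 0.062 without cHF+F replicate 1. Of these 8 genes Mrpl10 and Mrpl19 had all 8 cHF+F arrays above the cHF mean, and the others between 5 and 7 on one side.

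**Figure D2:**
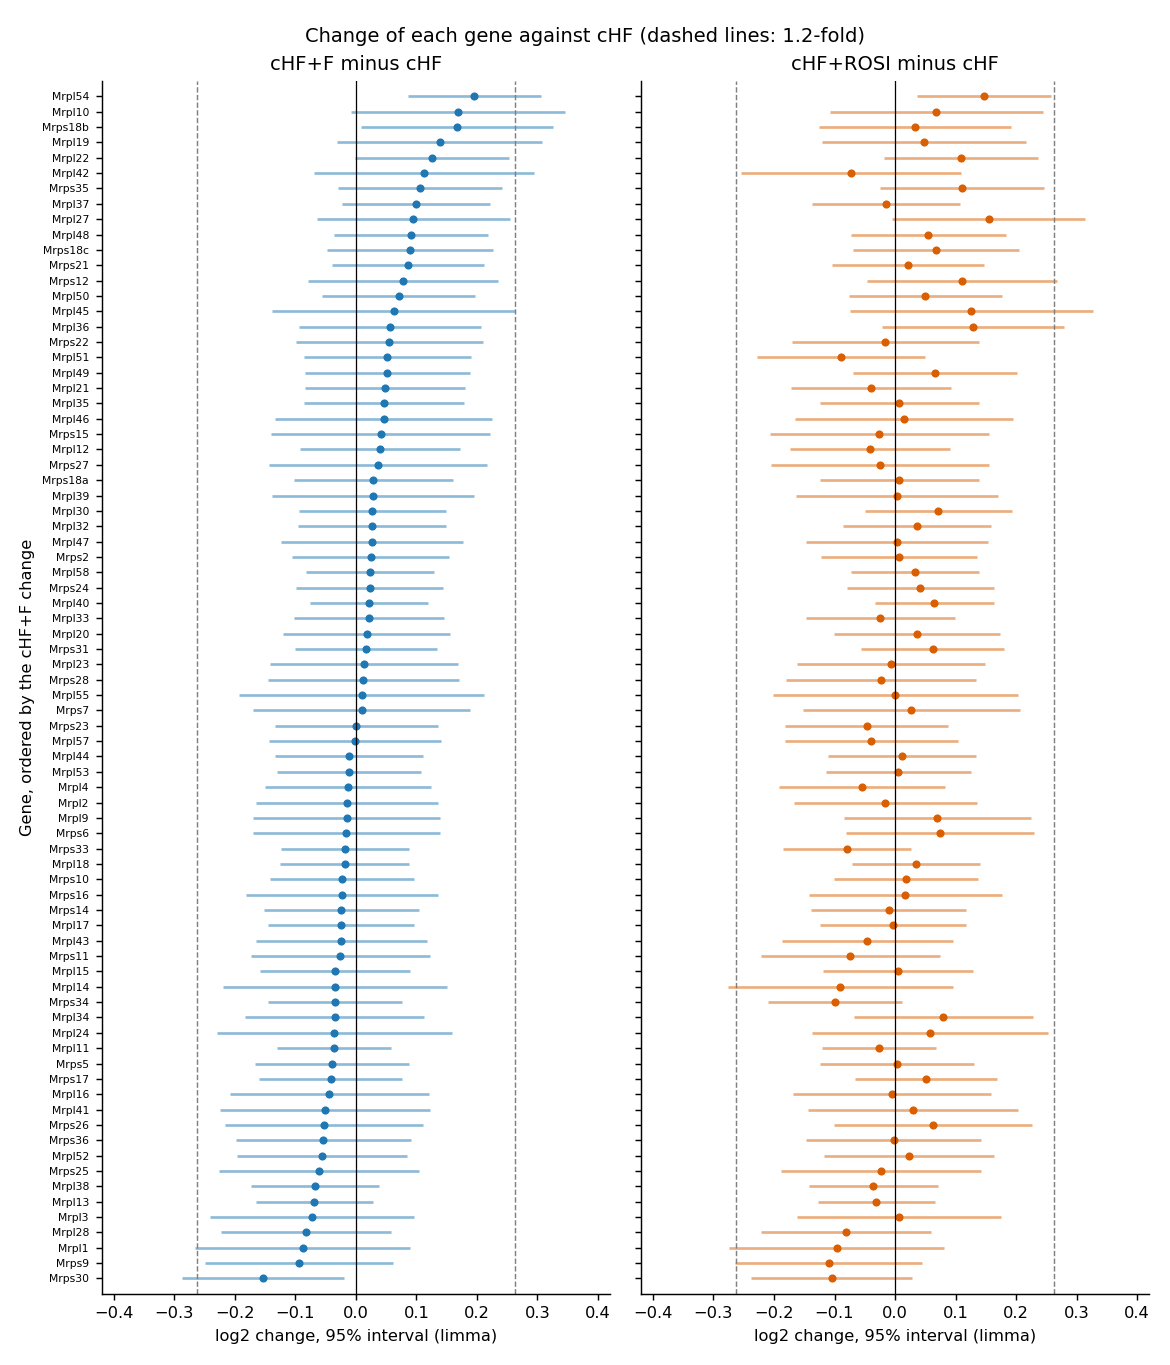
Log2 change of each of the 78 genes in cHF+F (left) and cHF+ROSI (right) against cHF mice, with 95% intervals from limma and dashed lines at 1.2-fold. Genes are ordered by the change in cHF+F, from Mrpl54 (0.20) to Mrps30 (-0.15), and no point lies beyond a dashed line.

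Rosiglitazone likewise gave no called change. In cHF+ROSI against cHF mice 46 members had a higher and 32 a lower mean, with a median change of 0.0065 (-0.0086 over all probes). No member and no probe was called by limma (0%), and 1 higher and 0 lower members had an unadjusted p under 0.05, beside 1.69% and 3% of all probes. In the main fit no member reached 1.2-fold (1.55% of all probes did), and the interval lay within 1.2-fold for 71 of 78 members and for 76.6% of all probes. The 7 exceptions were Mrpl27, Mrpl36, Mrpl45 and Mrps12 upwards, and Mrpl1, Mrpl14 and Mrps9 downwards.

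Mrpl54 again had the smallest p, with the cHF arrays shared between both comparisons. Its values in cHF+ROSI mice had a lowest, median and highest value of 0.051, 0.096 and 0.30, all above the cHF mean of -0.010. The change was 0.15 (interval 0.037 to 0.26, limma p 0.0108, adjusted p 0.996). Between the cHF+F and cHF+ROSI mice the means of this gene were 0.19 and 0.14.

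Mrpl27, a protein near the peptidyl transferase centre, followed with a change of 0.15 (interval -0.0048 to 0.31, limma adjusted p 0.996) but in Cy5 alone its change was -0.011. Mrps34, a small subunit protein with a bright probe, was at -0.13 ± 0.074 in cHF and -0.23 ± 0.12 in cHF+ROSI mice (SD, n = 8), a change of -0.099. The next members were Mrpl22 (0.11), Mrpl36 (0.13), Mrps35 (0.11), Mrps30 (-0.10), Mrps33 (-0.080), Mrps9 (-0.11) and Mrps12 (0.11). Mrps12 is a protein of the decoding centre. A further probe of Mrps33 gave 0.089 for the same change, and under alternative settings the change of Mrps33 went down to -0.31, past 1.2-fold. Without cHF+ROSI replicate 3 Mrpl36 was at 0.072 and Mrps33 at -0.046, without cHF+ROSI replicate 1 Mrps9 was at -0.071, and without cHF replicate 1 Mrps12 was at 0.17. None passed the correction, and the smallest adjusted p among members was 0.996.

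The 2 additions were also compared directly. In cHF+F against cHF+ROSI mice 38 members were higher and 40 lower, with a median of -0.0035 (0.0085 over all probes; -0.085 for the members with median centring), and again 0 members and 0% of probes were called by limma. Unadjusted p-values under 0.05 were found for 2 higher and 0 lower members (4.04% and 2.65% of probes), no member reached 1.2-fold (2.14% of probes), and 71 of 78 had an interval within it (73.4% of probes).

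Those 2 members were Mrpl51 and Mrpl42, both of the large subunit. Mrpl51 (chromosome 6, 125158963 to 125159022) ran from -0.19 to 0.17 with a median of -0.022 in cHF+F, and from -0.45 to 0.041 with a median of -0.12 in cHF+ROSI mice. The difference was 0.14 (interval 0.0026 to 0.28, limma adjusted p 0.738). The lowest value was that of cHF+ROSI replicate 3, without which the difference was 0.097, and with median centring of the arrays it was -0.0022.

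Mrpl42 (chromosome 10) lay at 0.24 ± 0.11 in cHF+F and 0.056 ± 0.26 in cHF+ROSI mice (SD, n = 8), with a difference of 0.18 (limma adjusted p 0.738). A further probe of this gene gave 0.0048 for the same difference. The remaining members with small p-values were Mrpl37 (0.11), Mrps18b (0.13), Mrps17 (-0.092), Mrpl34 (-0.12), Mrps26 (-0.12), Mrpl21 (0.088), Mrpl12 (0.081), which also binds the mitochondrial RNA polymerase, and Mrps34 (0.064). Several of these differences rested in part on 1 cHF+ROSI mouse. Without replicate 3 they were -0.044 for Mrps17, -0.072 for Mrpl34 and 0.040 for Mrps34. Without replicate 1 they were 0.12 for Mrpl42, 0.058 for Mrpl21 and 0.050 for Mrpl12, without replicate 2 -0.075 for Mrps26, and without replicate 7 0.14 for Mrpl21.

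**Figure D3:**
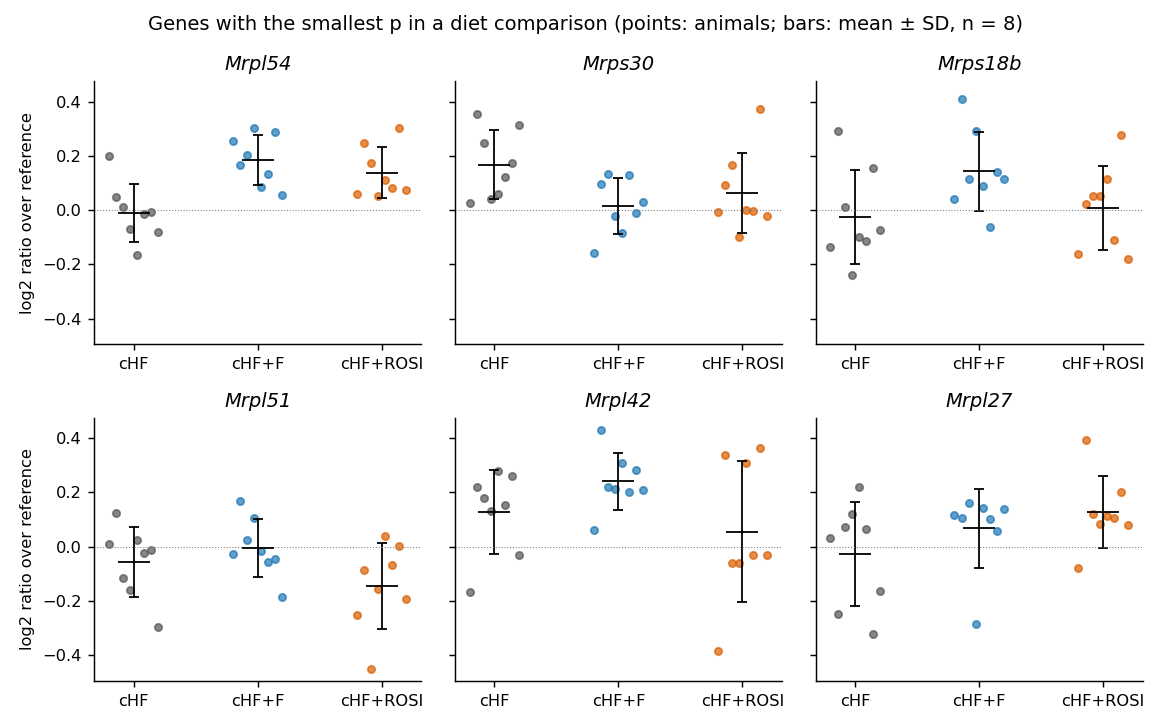
Log2 ratio over the reference in each animal for 6 genes with the smallest p in a diet comparison, with the mean ± SD (n = 8). The diet groups overlap in every panel, including Mrpl54, where the cHF mean of -0.010 lies below all 16 values of the other diets.

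Differences of this size also arose between probes of the same gene. For the 25 members with more than 1 kept probe, the change in cHF+F differed between probes by a median of 0.043 and at most 0.16, and 8 genes had probes of opposite sign. In cHF+ROSI against cHF the corresponding values were 0.062 and 0.24 (Mrpl1), with 11 genes of opposite sign, and in cHF+F against cHF+ROSI 0.058 and 0.19 (Mrps17), with 12. Probes of Mrpl1 gave -0.096 and 0.15 in cHF+ROSI against cHF, and -0.088 and 0.046 in cHF+F against cHF. In no comparison did probes of opposite sign lie 0.3 or more apart.

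Other parts of the machinery of mitochondrial translation were examined in the same fits, and none of their genes was called by limma. A list of 6 genes held ribosomal proteins known under other names and, beside them, the inner membrane insertase Oxa1l. In this list the smallest p-values in cHF+F against cHF belonged to Gadd45gip1 (-0.083), Ptcd3 (-0.054) and Oxa1l (-0.053). Among 26 translation and assembly factors 8 were higher and 18 lower, led by the initiation factor Mtif2 (0.14), the release factor homologue Mtrf1 (-0.088) and the RNA-binding protein Slirp (0.089). Of 16 mitochondrial aminoacyl-tRNA synthetases 7 were higher and 9 lower, with Wars2 (0.14), Vars2 (-0.076) and Ears2 (0.063) in front.

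In cHF+ROSI against cHF mice the same lists had 2 of 6, 9 of 26 and 4 of 16 genes higher. The smallest p-values were those of Aurkaip1 (-0.055), Oxa1l (-0.086) and Ptcd3 (-0.054), of Slirp (0.10), the elongation factor Tufm (-0.13) and Mtif2 (0.091), and of Pars2 (-0.14), Cars2 (-0.11) and Aars2 (-0.080). In cHF+F against cHF+ROSI they were those of Gadd45gip1 (-0.14), Dap3 (-0.066) and Chchd1 (0.097), of Mtrf1 (-0.10), Nsun4 (0.11) and Mtg1 (-0.088), and of Pars2 (0.14), Wars2 (0.17) and Lars2 (0.46). The difference of Lars2 had an SE of 0.22 and a limma adjusted p of 0.738, and was 0.31 without cHF+ROSI replicate 3. Without the same array Dap3 was at -0.040 and Chchd1 at -0.010 in cHF+F against cHF+ROSI, and Slirp at 0.056 in cHF+ROSI against cHF.

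Among 14 regulators of mitochondrial gene expression, Ppargc1a had the smallest p in cHF+F against cHF, followed by the RNA polymerase Polrmt (-0.13) and the DNA helicase Twnk (0.13). In cHF+ROSI against cHF mice Polg (-0.092), Twnk (0.12) and Nrf1 (0.090) led the list, and in cHF+F against cHF+ROSI Polg (0.078), Ppargc1a (0.18) and Yy1 (-0.093) did. None was called.

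Genes for the partners of the mitochondrial ribosome in building the respiratory chain had medians farther from 0 than the members in both comparisons with the cHF+ROSI mice. The 83 nuclear-encoded subunits of the respiratory chain and ATP synthase had a median change of -0.10 in cHF+ROSI against cHF. The members stood at 0.0065. Of the 83 genes 70 were lower, as were 8715 of all 15934 probes, and none of the 83 was called by limma. In cHF+F against cHF+ROSI the median of the respiratory chain genes was 0.090, and that of the members -0.0035. There 74 of 83 were higher, as were 8641 of all 15934 probes, and none was called. Both medians of the respiratory chain genes moved with cHF+ROSI replicate 3, whose mean over these genes was -0.42, while the other 23 arrays lay between -0.14 and 0.15. Without it the medians for cHF+ROSI against cHF were -0.042 for the respiratory chain genes and 0.0036 for the members. Those for cHF+F against cHF+ROSI were 0.034 and -0.0024. Without that array 20 of 83 respiratory chain genes were higher in cHF+ROSI against cHF, and 63 of 83 in cHF+F against cHF+ROSI. On that array the mean of the members was 0.099 and that of the 6 skeletal muscle markers -0.78, the lowest of all arrays. In cHF+F against cHF the medians were -0.0077 for 83 respiratory chain and 0.040 for 90 cytosolic ribosomal protein genes.

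Markers of several cell types were also lower in cHF+ROSI against cHF mice, none of them called by limma. All 6 skeletal muscle markers had a lower mean (median change -0.15), as did all 3 blood (-0.47) and all 4 endothelium markers (-0.16). All 5 macrophage (-0.075) and 4 of 6 slow fibre markers (-0.23) were lower too. A higher mean was found for 4 of 6 adipocyte (0.038) and all 3 liver markers (0.91). In cHF+F against cHF mice all 4 endothelium (-0.16), all 5 macrophage (-0.18), all 3 blood (-0.023) and 5 of 6 slow fibre markers (-0.61) were lower. There 4 of 6 adipocyte markers (-0.080) were lower too, whereas 5 of 6 skeletal muscle (0.11) and all 3 liver markers (0.44) were higher. None of these was called by limma either. The mean of the skeletal muscle markers ran from -0.32 to 0.68 in cHF and from -0.78 to 0.61 in cHF+ROSI mice, so that the groups overlapped. The part of these markers in the respiratory chain values was not tested.

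Ppargc1a itself was more variable than any mitochondrial ribosomal protein gene. On its brightest probe (chromosome 5, 51745937 to 51745996) the lowest, median and highest log2 ratios were -0.49, -0.29 and 0.18 in cHF, -0.25, 0.0030 and 0.56 in cHF+F, and -0.53, -0.17 and 0.55 in cHF+ROSI mice. The highest values were those of replicate 2 in cHF+F and replicate 6 in cHF+ROSI, and all 3 groups overlapped. The change in cHF+F against cHF was 0.28 (interval 0.0065 to 0.55, limma p 0.0451, adjusted p 0.714), with 7 of 8 cHF+F arrays above the cHF mean. It was 0.093 in cHF+ROSI against cHF (limma adjusted p 0.996), and -0.0064 without cHF+ROSI replicate 6.

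Over the 24 arrays this range of about 1 log2 unit in Ppargc1a went with little movement of the members. In a limma fit of each probe on Ppargc1a with the diets in the model, 52 of 78 members (66.7%) had a positive slope, as did 57.5% of all probes. The median slope was 0.038 (0.021 over all probes), that is a log2 ratio higher by 0.038 for each doubling of the Ppargc1a ratio. No member and no probe was called (0%), and 2 positive and 0 negative members had an unadjusted p under 0.05, beside 4.75% and 1.8% of all probes.

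Mrpl19, a large subunit protein (chromosome 6, 81927634 to 81927693), had the steepest slope, 0.36 (interval 0.14 to 0.58, limma p 0.00265, adjusted p 0.720). Its lowest, median and highest values were -0.36, -0.014 and 0.25 in cHF, -0.016, 0.057 and 0.40 in cHF+F, and -0.15, -0.012 and 0.23 in cHF+ROSI mice. Mrpl43 had a slope of 0.21 (interval 0.0022 to 0.41, limma adjusted p 0.759). Mrpl45, which attaches the ribosome to the inner membrane, followed with 0.26, then Mrpl27 (0.19), Mrpl15 (0.13) and Mrpl23 (-0.16). Single arrays carried part of these slopes. Without cHF+ROSI replicate 6 that of Mrpl15 was 0.059 and that of Mrpl27 0.30, and without cHF+F replicate 2 that of Mrpl45 was 0.17 and that of Mrpl23 -0.24. At the other end, the slopes of Mrps12 (-0.0045), Mrps14 (-0.0013) and Mrps33 (-8.6e-04) had the largest p, and the interval of Mrps33 ran from -0.17 to 0.16.

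**Figure D4:**
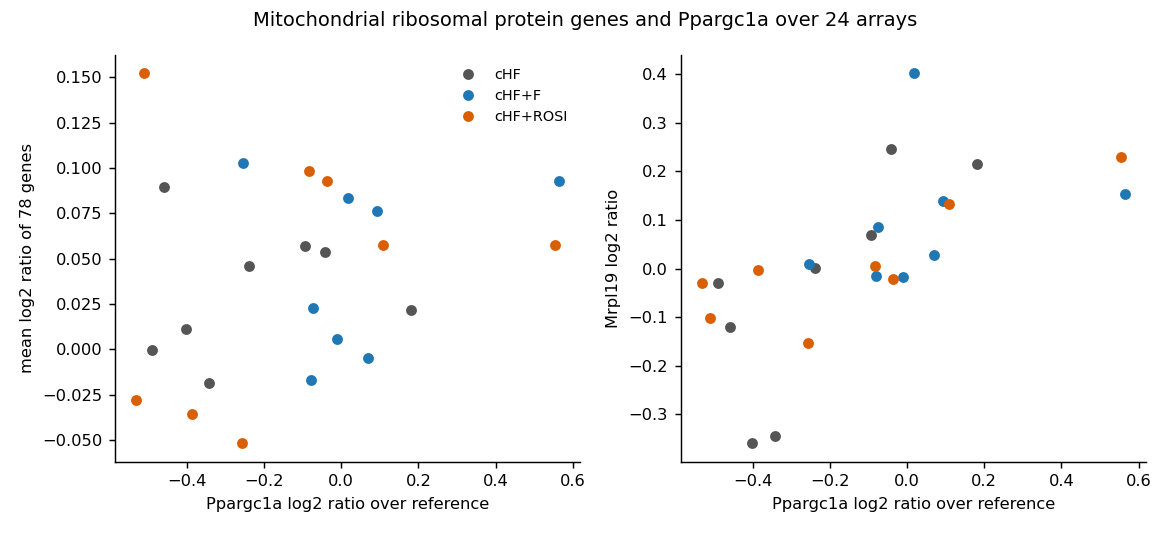
Mean log2 ratio of the 78 genes (left) and log2 ratio of Mrpl19 (right) against the log2 ratio of Ppargc1a, one point per array, coloured by diet. On the left r was 0.22 over 24 arrays, and the cHF+ROSI mouse with the highest mean (0.15) had a Ppargc1a ratio of -0.51.

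As a description over 24 arrays, which share the reference pool and the slides, the mean of the members correlated with Ppargc1a with r = 0.22 and rho = 0.24. Within cHF, cHF+F and cHF+ROSI r was 0.13, 0.24 and 0.21 (8 arrays each), and with slide means removed it was 0.19. Without the 2 arrays farthest from the median of Ppargc1a, r was 0.11. It was 0.14 when cHF+F replicate 2, and 0.41 when cHF+ROSI replicate 7, was left out. The relation also changed with the scaling, since with median centring in place of loess all 78 members were called for a slope on Ppargc1a, together with 11787 of 15932 probes (74.0%), and r was 0.74.

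The choice of the Ppargc1a probe mattered too. A dimmer probe of the gene (13.9 times background against 24.8) correlated with the brighter with r = 0.55 over all arrays and 0.89 without the 3 arrays of slide 1, where it was 0.38 to 0.75. With it 8 members were called for a slope, beside 2313 of 15932 probes (14.5%), and 0 when the slide was added as a replicate block or when slide 1 was left out.

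Promoter windows of the members were searched for the motifs through which PGC-1α partners bind. RefSeq windows (build GRCm38.p6, 250 bases before to 50 after the start) were matched for 69 of the 78 members by symbol, and letters were searched on both strands. The ETS core bound by GABPA (CCGGAAG) was found in 25 of 69 windows (36.2%) against 9.12% of the 27025 windows of all genes. The YY1 core (AAGATGGC) was in 12 (17.4% against 2.88%), the NRF1 core (GCGCATGC or GCGCACGC) in 11 (15.9% against 5.52%) and the ERR site (AAGGTCA) in 4 (5.80% against 4.66%). Among windows of cytosolic ribosomal protein genes (78) and of respiratory chain genes (70), the ETS core was in 32.1% and 22.9%, the YY1 core in 6.41% and 12.9%, the NRF1 core in 6.41% and 20%, and the ERR site in 5.13% and 11.4%. Of the 69 members' windows 27 held none of these letters. The windows of all genes and of the compared lists were not limited to genes detected in this muscle, whereas all members were detected. The shares are therefore not matched for expression. Matches are a description of sequence and not of binding.

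The 3 members with the smallest p in the Ppargc1a fit were Mrpl19, Mrpl43 and Mrpl45. The windows of Mrpl43 and Mrpl45 are shown, with the letters matched in capitals. Mrpl19 was among the members without a matched window. That of Mrpl43 lies on the minus strand (chr19:45006393-45006692) and holds 2 ETS cores, which begin 56 and 12 bases before the start. That of Mrpl45 lies on the plus strand (chr11:97315466-97315765) and holds 3 NRF1 cores, 1 beginning 38 bases before the start and 2 that overlap each other after it, in reverse orientation (GCGTGCGC).
Mrpl43: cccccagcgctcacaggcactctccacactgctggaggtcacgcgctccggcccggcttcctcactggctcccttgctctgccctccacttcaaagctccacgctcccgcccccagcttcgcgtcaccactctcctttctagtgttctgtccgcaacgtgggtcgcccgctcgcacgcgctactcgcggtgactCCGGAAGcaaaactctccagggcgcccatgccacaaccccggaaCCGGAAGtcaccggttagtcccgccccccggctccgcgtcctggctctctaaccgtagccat
Mrpl45: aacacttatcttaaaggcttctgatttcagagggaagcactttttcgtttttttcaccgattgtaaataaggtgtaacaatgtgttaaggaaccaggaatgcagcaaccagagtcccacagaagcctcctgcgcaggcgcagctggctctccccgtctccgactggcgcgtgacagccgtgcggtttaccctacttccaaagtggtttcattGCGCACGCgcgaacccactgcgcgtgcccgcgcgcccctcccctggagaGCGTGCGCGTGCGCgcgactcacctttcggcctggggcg

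Variation among these genes followed the slide more than the diet. Slides accounted for a median of 52.8% of a member's variance over the 24 arrays (48.2% over all named genes) and diets for 4.84% (6.98%), where 8 slides and 3 diets without any effect would take 30.4% and 8.70%. The slide share was above the diet share in 76 of 78 members, the exceptions being Mrpl54 and Mrpl27. In a limma F test of the slide beside the diets, a test chosen after the values were seen, 29 of 78 members (37.2%) were called, against 30.1% of all probes, 45.8% of respiratory chain and 37.8% of cytosolic ribosomal protein genes. Without cHF replicate 1 the count was 18.

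Mrpl3, a core protein of the large subunit (chromosome 9, 104935471 to 104935530), had the smallest p for the slide (limma adjusted p 2.38e-04). Its slide means, over 3 arrays each, were -0.083, 0.38, 0.26, 0.039, 0.22, 0.041, 0.073 and -0.065 for slides 1 to 8. The 3 arrays of slide 2 had the highest value of their diet in each case. Mrpl45 ranged from 0.21 on slide 2 to -0.37 on slide 8, Mrpl1 from -0.11 on slide 1 to 0.41 on slide 2 and Mrpl41 from -0.23 on slide 8 to 0.22 on slide 2. Mrpl42 followed Mrpl1, with -0.16 on slide 1 and 0.33 on slide 2, whereas Mrps25 was at 0.39 on slide 1 and between -0.094 and 0.069 on the others.

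**Figure D5:**
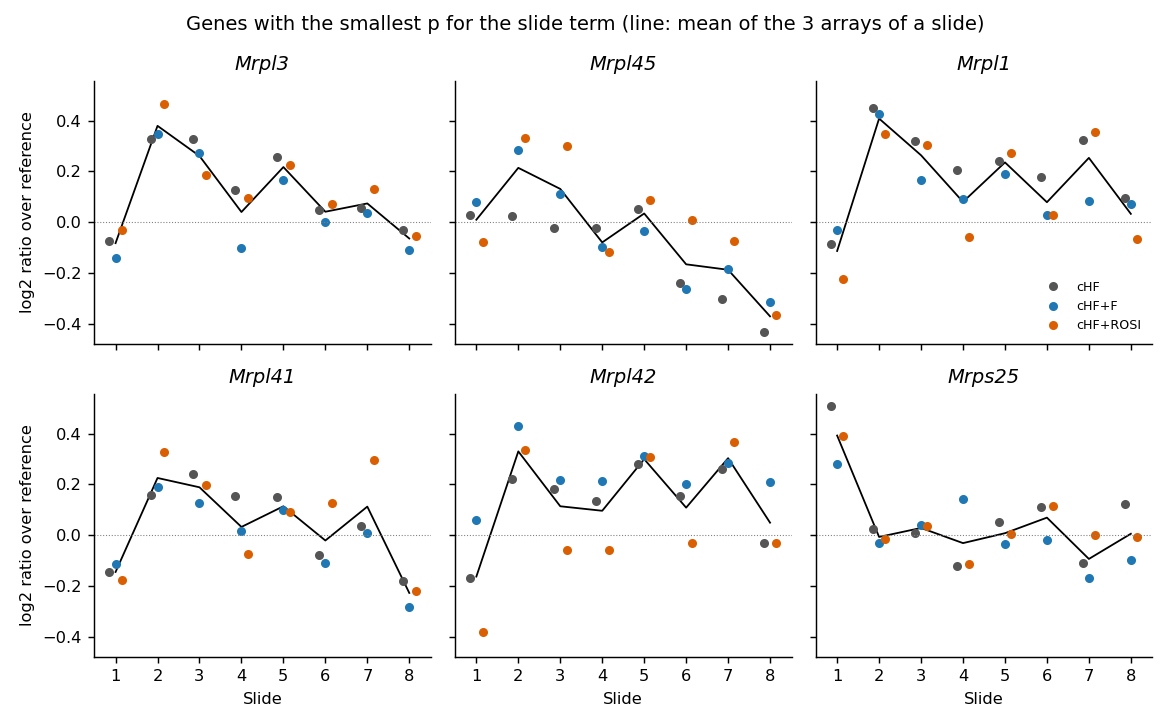
Log2 ratio over the reference by slide for the 6 genes with the smallest p for the slide, with 1 array of each diet per slide and a line through the slide means. Because the genes were picked by this p, agreement of the 3 diets within a slide is part of the choice. The slide means of Mrpl3 run from -0.083 on slide 1 to 0.38 on slide 2. Single arrays depart, as for Mrpl42 on slide 3 (0.18 in cHF, 0.22 in cHF+F and -0.059 in cHF+ROSI).

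Members did not all move the same way between slides, as 27 were higher and 20 lower on all 3 arrays of slide 2 than on those of slide 1. The first principal component of the 78 genes held 32.4% of their variance, 89.7% of it between slides and 0.021% between diets, and 50 members had a positive and 28 a negative weight. Its ends were the arrays of slide 1 (-12.4 to -6.21) and those of slide 2 (6.68 to 8.05), among which cHF+ROSI replicate 3 also lay at 6.95. The reference channel also differed by slide, as in Cy3 alone 63 of 78 members and 62.9% of all probes were called. With the processed signals of the scanner software 0 members were called for the slide and 34.1% of the first component lay between slides, and with Cy5 alone 57 were called. Replicate numbers equal slide numbers, so the slide and anything else that animals of the same number shared cannot be told apart.

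The mean pairwise correlation of the members over 24 arrays was 0.14 (0.22 with slide and diet means removed), with 62.7% of 3003 pairs positive, as compared with 0.30 for respiratory chain, 0.22 for cytosolic ribosomal protein and 0.017 for all named genes. It was 0.15 within the large and 0.13 within the small subunit, and 0.13 between them. The means of the large and small subunit genes correlated with r = 0.79 over the arrays, and 0.81 with slide means removed. The mean of the members correlated with that of the respiratory chain genes with r = -0.12 (0.16 without cHF+ROSI replicate 3) and with that of the cytosolic ribosomal protein genes with r = -0.15 (0.014 without it).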

How the data were processed

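Gastrocnemius RNA of each mouse (Cy5) was hybridised with a common reference pool (Cy3) to 2-channel Agilent arrays, without dye swap. Per the file headers, the deposited intensity values are the median spot and local background signals of Feature Extraction 10.5.1.1 on a linear scale, together with its processed signals, and the probes are placed on build mm8. The authors also deposited a table of log2 values (Cy5 normalized against Cy3, spots under 2 times background removed), which covers cHF and cHF+F. Another 8 of its columns carry the name of a combined diet that matches no group here and were not used.

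Here median signals were corrected by normexp (offset 50), log2 ratios were normalized by loess (span 0.3), flagged spots were left out and spots of a probe averaged. Of 41174 probes, 15934 had a mean signal over background of at least 2 in both channels and at least 4 unflagged arrays in each group. Of these, 12607 were named through their accession, 2383 by the file only and 944 not at all. Mrpl42, Mrpl57 and Mrpl58 were found through their current symbols. The 3 diets were compared in 1 model without a block in limma 3.58.1 (R 4.3.3), two-sided, with Benjamini-Hochberg adjustment over all kept probes and a threshold of 0.05. Slopes on Ppargc1a came from the same model with its log2 ratio added. Intervals are 95% intervals of limma. Replicate numbers were the slide numbers. Deviations from the group means correlated by -0.11 to 0.64 between arrays of a slide, with 18 of 24 pairs over 0.1.

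Members named in the text are the 10 with the smallest p in each comparison, the 6 with the smallest and the 3 with the largest p in the Ppargc1a fit, the 4 with the highest and the 4 with the lowest signal, and, in each further list, the 3 with the smallest p. The members and lists were chosen with earlier results of these data known. The fits were tested on simulated data of 15934 probes with 200 changed. The number of arrays limits the precision. Alternatives were mean signals, no background correction, processed signals, median centring, a span of 0.1, Cy5 alone, a minimum of 3 or none, all probes of a gene, array weights, the slide as a block, each array left out, the methods' t-test and the deposited table.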

Additional observations from a re-analysis of the deposited data

Results flagged for a closer look

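Among 117 groups of 8 arrays examined for 39 of the values given above, 7 had an array set apart from the nearest other by more than Dixon's 95% limit, where chance alone gives about 1 in 20 groups. Ppargc1a was at 0.56 on the array of the cHF+F mouse with replicate number 2, and at 0.092 on the next. Mrpl19 was at 0.40 on that of the cHF+F mouse with replicate number 1, next to 0.15. Mrpl27 was at -0.28 on that of the cHF+F mouse with replicate number 4, while the other 7 lay between 0.059 and 0.16. The cHF+ROSI mouse with replicate number 3 was apart for Mrpl36 (0.49, next 0.14) and Mrps17 (0.53, next 0.24). Mrpl12 was at 0.16 on the array of the cHF mouse with replicate number 2 (next -0.043) and Mrpl33 at 0.097 on that of the cHF mouse with replicate number 3 (next -0.14).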

How the results depend on the processing

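No member was called between diets under any alternative or with any array left out, and the smallest adjusted p (limma) was 0.0785, for Mrpl54 in cHF+F against cHF with the slide as a random block. With the replicate number (slide) as a fixed replicate block the smallest adjusted p was 0.126 for cHF+F against cHF, and the medians of 0.011, 0.0065 and -0.0035 were those of the model without it. That block changed no call among the members, and over all probes 6 were called for cHF+F against cHF. Over the 24 fits without 1 array the median ran from -0.0095 to 0.016 for cHF+F against cHF. The methods' t-test gave 2 higher and 1 lower member unadjusted for cHF+F against cHF, and 0 after adjustment. With the deposited table the median for cHF+F against cHF was 0.044. Changes past 1.2-fold (0.26 on the log2 scale) did occur for single named members under alternatives. In cHF+F against cHF they reached 0.33 for Mrpl37 and 0.28 for Mrpl54, and in cHF+ROSI against cHF -0.31 for Mrps33.

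With median centring the medians were -0.055 for cHF+F against cHF and -0.085 for cHF+F against cHF+ROSI, 78 members were called for a slope on Ppargc1a, r with Ppargc1a was 0.74 and 45 members were called for the slide. The dimmer Ppargc1a probe gave 8 called slopes. The slide was called for 0 members with processed signals and for 57 with Cy5 alone, and for 18 (without cHF replicate 1) to 31 (without cHF+F replicate 4) with 1 array left out. The causes were not tested.

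Some uncalled genes changed sign. Without background correction cHF+F against cHF+ROSI was -0.0015 for Mrps34 and -0.037 for Chchd1. With processed signals Mrpl19 (-0.055) and Mtif2 (-0.033) reversed in cHF+F against cHF, Mrpl36 (-0.015), Mrps12 (-0.029) and Mtif2 (-0.13) in cHF+ROSI against cHF, Chchd1 (-0.011) in cHF+F against cHF+ROSI, and the slope of Mrpl23 (0.015). With median centring Mrpl51 (-0.0022), Mrpl12 (-0.036), Mrps34 (-0.068) and Chchd1 (-0.074) reversed in cHF+F against cHF+ROSI, and the slope of Mrpl23 (0.68). A span of 0.1 gave -0.018 for Chchd1 in that comparison. With Cy5 alone Ptcd3 (0.095) reversed in cHF+F against cHF, Mrpl27 (-0.011), Mrpl22 (-0.0068) and Mrps30 (0.055) in cHF+ROSI against cHF, Mrps26 (0.0097), Mrpl21 (-0.013) and Gadd45gip1 (3.1e-04) in cHF+F against cHF+ROSI, and the slope of Mrpl23 (0.055). The mean of all probes gave 0.0064 for Ptcd3 and 0.018 for Oxa1l in cHF+F against cHF, -0.012 for Nrf1 in cHF+ROSI against cHF and 0.054 for Dap3 in cHF+F against cHF+ROSI. The slope of Mrpl27 was -0.12 with the dimmer Ppargc1a probe and the replicate block. With 1 array left out, Ppargc1a in cHF+ROSI against cHF ran from -0.0064 (without cHF+ROSI replicate 6) to 0.15 and Chchd1 in cHF+F against cHF+ROSI from -0.010 (without cHF+ROSI replicate 3) to 0.17. Filters at 3 times background or none left the medians as they were.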
